A study of Danio rerio with 3 samples.

Results

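Chromatin modifiers and remodellers were taken as the genes whose symbol on the array begins with one of the family names dnmt, tet, hdac, kdm, kmt, setd, smarc, cbx, ezh, suz12, eed, rnf2, chd, prmt, ehmt, suv39, brd or arid. By this pattern 120 of the 15571 genes measured were members, read by 235 probes. The pattern used no measured value. Of the 120, 10 matched only because their symbols begin with rnf2. Among these, rnf20 encodes a ubiquitin ligase for histone H2B, and the others encode other RING finger proteins, so 110 genes remain when the 10 are set aside. The assembly table names 172 genes that match the pattern, and 52 of them, including the tet genes, eed and chd7, were not analysed here.

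The study exposed wild-type zebrafish embryos (strain Ab) to LY-364947, an inhibitor of the kinase of TGF-β receptor 1, at 40 µM from 8 to 48 hours post fertilisation. There were 3 treated replicates of 10 to 15 whole embryos, and each was hybridised on its own 2-colour array against the same pool of 3 untreated replicates of the same strain and age. The dyes were swapped for replicate 2, where the treated RNA was in Cy5; it was in Cy3 for the other two. The values are log ratios, taken as base 2 because the base is not given in the sources used here. If the base were 10, the tests would be the same and every fold would be larger.

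The sign of replicate 2 was turned, and every ratio below has the sign of replicates 1 and 3. The numerator of the deposited ratios is not given in the sources used here. By the order of names in the sample titles, a negative value is lower with LY-364947, whereas as Cy5 over Cy3 it is lower in the untreated pool, so members are placed on the negative or the positive side and no direction is claimed. Since 1 pool is the partner in all 3 ratios, variation among untreated embryos does not enter the test. The table holds ratios and no levels, so the labelled tissue could not be checked against its markers, and the number of arrays limits the precision. In RNA of whole embryos, fewer cells of a type and less RNA per cell cannot be told apart.

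Chromatin enzymes add or remove chemical marks on DNA and histones. Methyltransferases and acetyltransferases write marks, demethylases and deacetylases erase them, and reader proteins such as the chromodomain and bromodomain families bind the marks. Remodelling ATPases of the SWI/SNF, ISWI and CHD families move or eject nucleosomes. In the zebrafish embryo, smarca4a, hdac1, dnmt1 and uhrf1 are known from mutants with defects of the eye, and in mammals the subunits of the SWI/SNF complex are exchanged as neural progenitors become neurons.

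Most members had ratios close to 0. The median size of a mean ratio was 0.09 log2 units, against 0.09 over all genes, and 2 of 120 members (1.67%) reached 0.5 in size, against 4.22% of all genes. By limma across all genes, 23 members passed an adjusted p of 0.05, or 19.2%, where 19.4% of all genes passed. The members that passed lay mostly on 1 side, with 20 negative calls (16.7%, against 9.43% of all genes) and 3 positive calls (2.5%, against 9.92% of all genes). Of the 23 calls, 20 were lost without replicate 2, 13 without replicate 1 and 1 without replicate 3. Without replicate 1 or 2, with a dye term or at a stricter threshold, the negative share was close to that of all genes. Without replicate 3 it remained the larger. The mean ratio was below 0 for 84 members (70.0%) and for 50.4% of all genes. The median of the members was -0.05, with -0.08, -0.07 and -0.03 on replicates 1, 2 and 3, and the median of all genes was 0.00 on every array except replicate 3, where it was -0.01. None of the 10 genes with only the rnf2 prefix passed, so the counts of 20 and 3 are the same over the 110 others.

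**Figure D1:**
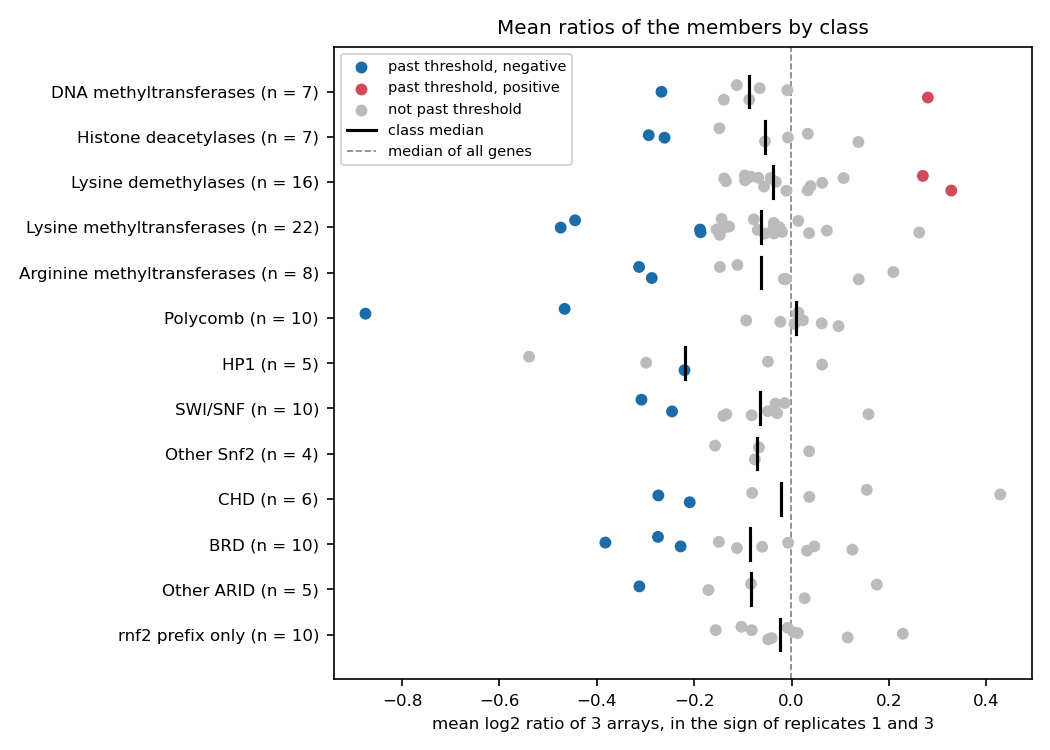
Mean log2 ratio of each member over 3 arrays (horizontal axis), by class (rows), with points coloured by the limma call and a bar at each class median. Blue points, past the threshold on the negative side, number 20 and occur in 10 of the 13 classes, and the 3 red points on the positive side are a DNA methyltransferase and 2 lysine demethylases.

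By class, negative calls numbered 4 of 22 lysine methyltransferases, 3 of 10 bromodomain genes, and 2 each of 7 histone deacetylases, 8 arginine methyltransferases, 10 Polycomb genes, 10 SWI/SNF genes and 6 chd genes. There was a single negative call among 7 DNA methyltransferases, 5 HP1 genes and 5 other arid genes. Positive calls were 2 of 16 lysine demethylases and 1 DNA methyltransferase. Over all genes, 9.43% were negative and 9.92% positive calls. With both sides together, class shares ran from 0.0% (other Snf2 genes) to 33.3% (chd genes), against 19.4% of all genes. The shares were 18.2% for lysine methyltransferases and 20.0% for Polycomb, SWI/SNF, HP1 and other arid genes. The lysine demethylases had 0 negative calls, and of those not called kdm8, at -0.13, had an unadjusted p under 0.05 in the same limma fit. None of the 4 other Snf2 genes passed by limma, at an adjusted p of 0.104 or more, and smarcad1a alone had an unadjusted p under 0.05. Class medians ran from -0.22 (HP1) to 0.01 (Polycomb), and the Polycomb median was -0.0018 without replicate 1, 0.0454 without replicate 2 and -0.0325 without replicate 3. Differences between classes were not tested.

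**Figure D2:**
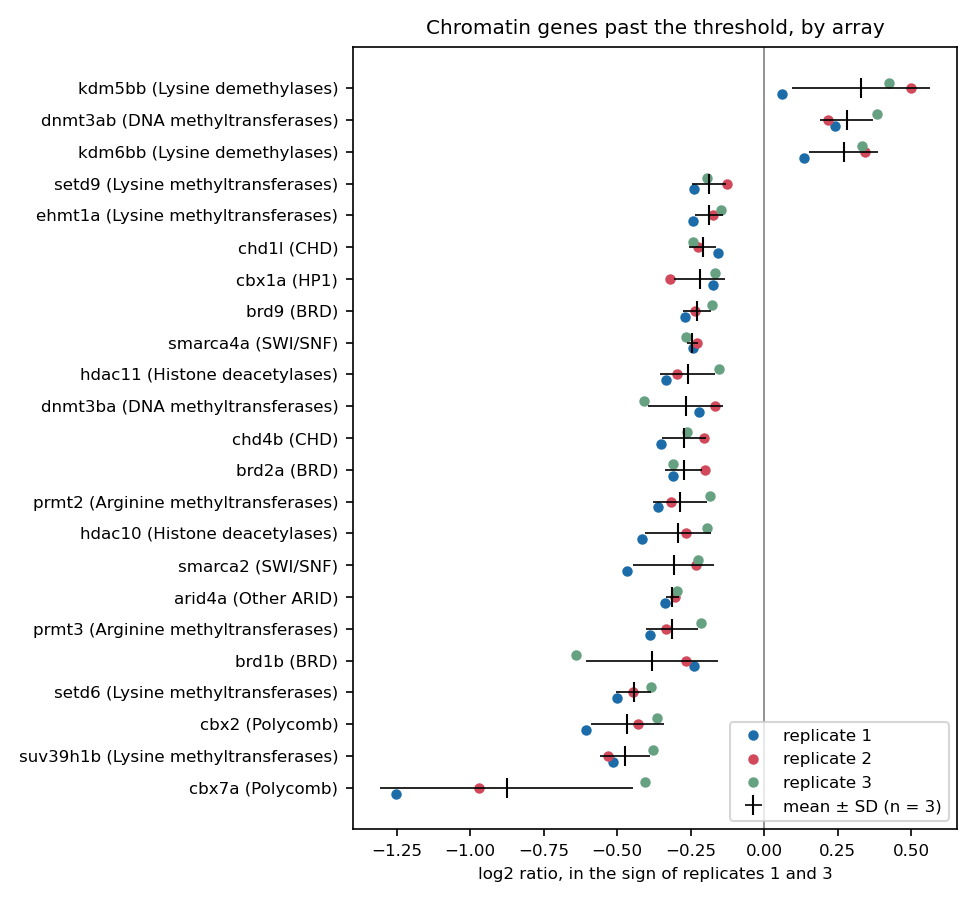
Log2 ratios of the 23 members past the threshold on each of 3 arrays (points), with the mean and SD (n = 3). All 23 have 1 sign on the 3 arrays, and cbx7a at the bottom lies apart from the rest.

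The Polycomb group held the member farthest from 0. Polycomb proteins keep developmental genes silent: PRC2, with ezh1 or ezh2 as its methyltransferase and suz12 as a scaffold, methylates histone H3, and chromodomain proteins of the cbx family bring PRC1 and its ligase rnf2 to that mark. The chromodomain gene cbx7a had ratios of -1.25, -0.97 and -0.41 on replicates 1, 2 and 3. All were negative, and replicate 3 was the closest to 0. The mean was -0.88 ± 0.43 (SD, n = 3), a 1.83-fold difference (limma adjusted p = 0.0073), and its 2 probes both passed on their own, at -1.13 and -0.62, where 10.4% of all probes passed. Its relative cbx2 had -0.60, -0.43 and -0.36, close together and all negative, with a mean of -0.47 ± 0.12 (1.38-fold, limma adjusted p = 0.00349).

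The other Polycomb members had mean ratios near 0. Those of cbx6a, cbx6b and cbx8a were 0.06, -0.02 and 0.02, but cbx6b had -0.06, 0.26 and -0.27 on replicates 1, 2 and 3. The ligase gene rnf2 had 0.07, 0.10 and 0.12, with a mean of 0.10 ± 0.02 (limma adjusted p = 0.236). The PRC2 genes suz12a (0.01 ± 0.13), suz12b (0.01 ± 0.13) and ezh1 (0.01 ± 0.10) did not pass. For ezh2 the arrays disagreed, with -0.18, -0.26 and 0.16, and the mean of -0.09 ± 0.23 did not pass (limma adjusted p = 0.519, 95% interval -0.30 to 0.11). Its 5 probes had means from -0.31 to 0.05, and 1 of them passed on its own.

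Among lysine methyltransferases, suv39h1b and setd6 were farther from 0 than the remaining 20. The gene suv39h1b encodes an enzyme that trimethylates histone H3 in heterochromatin. It had -0.51, -0.53 and -0.38, with all arrays well below 0, and a mean of -0.47 ± 0.08 (1.39-fold, limma adjusted p = 0.00208). For setd6, whose human counterpart methylates the NF-κB subunit RelA, the ratios were -0.50, -0.45 and -0.39, again close together, with a mean of -0.44 ± 0.06 (1.36-fold, limma adjusted p = 0.0021). Both probes of each gene passed.

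The other negative methyltransferases were small and near the threshold. For ehmt1a, a partner in the complex that dimethylates histone H3 in silent euchromatin, the mean was -0.19 ± 0.05 (limma adjusted p = 0.0458), and for setd9 it was -0.19 ± 0.06 (limma adjusted p = 0.0493). The call of setd9 stood in 3 of 12 alternative settings. Just outside the threshold in this class were kmt5b, at 0.26 ± 0.19 (limma adjusted p = 0.0602), and setdb2, at -0.15 ± 0.05 (0.0874). Of the Trithorax genes, which oppose Polycomb, kmt2a lay at -0.02 ± 0.08 and did not pass. For kmt2bb the ratios were -0.12, -0.10 and -0.17, all negative, and the mean of -0.13 ± 0.03 did not pass (limma adjusted p = 0.129, 95% interval -0.25 to -0.01), although 1 of its 5 probes passed alone at -0.26. The related ehmt2 had -0.33, -0.15 and 0.06, so its arrays spanned 0.

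Both calls among lysine demethylases were positive. The gene kdm6bb encodes an enzyme that removes the mark laid by PRC2. It had 0.13, 0.34 and 0.33, with replicate 1 the lowest, and a mean of 0.27 ± 0.12 (1.21-fold, limma adjusted p = 0.0241). All 5 of its probes had positive means, from 0.17 to 0.49, but only the highest passed alone. The gene kdm5bb, which encodes a demethylase of active histone H3 marks, had 0.06, 0.50 and 0.43 and a mean of 0.33 ± 0.23 (1.26-fold, limma adjusted p = 0.0434). It was read by 1 probe, which did not pass in the fit over probes (limma adjusted p = 0.0744). The remaining 14 demethylases lay between -0.14 and 0.11, among them kdm1a, a partner of CoREST, at -0.10 ± 0.10 (limma adjusted p = 0.318). The other PRC2-mark demethylases kdm6a (0.06) and kdm6al (-0.14) did not pass.

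The DNA methyltransferases split by gene. The maintenance enzyme gene dnmt1 had -0.13, -0.05 and -0.09, all slightly negative, and its mean of -0.09 ± 0.04 did not pass (limma adjusted p = 0.296, 95% interval -0.21 to 0.03). Of the de novo enzymes, dnmt3ab had 0.24, 0.22 and 0.38, with a mean of 0.28 ± 0.09 (1.21-fold, limma adjusted p = 0.0158), and dnmt3ba had -0.22, -0.17 and -0.41, with a mean of -0.27 ± 0.13 (1.20-fold, limma adjusted p = 0.0278). Each was read by 1 probe, and in the fit over probes that of dnmt3ba did not pass (limma adjusted p = 0.0528). The difference between dnmt3ab and dnmt3ba was not tested. The other 4 de novo genes did not pass, with dnmt3aa at -0.01 ± 0.08, dnmt3bb.1 at -0.07 ± 0.07, dnmt3bb.2 at -0.11 ± 0.09 and dnmt3bb.3 at -0.14 ± 0.15.

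Partners of dnmt1 in maintenance were farther from 0 than dnmt1 itself. The gene uhrf1, whose protein brings Dnmt1 to newly copied DNA, had -0.88, -0.53 and -0.46, all below the lowest dnmt1 ratio, and a mean of -0.62 ± 0.22 (limma adjusted p = 0.00378). The helicase gene hells, needed for methylation of repeats in mammals, had a mean of -0.32 ± 0.06 (limma adjusted p = 0.00736). In the list of 15 further genes for DNA methylation maintenance, removal and reading, 10 were measured. Of these 10, 5 were negative calls and 1 was a positive call, where 9.43% and 9.92% of all genes were. The negative ones included the Gadd45 genes gadd45ba (-0.36 ± 0.12) and gadd45bb (-0.35 ± 0.08), and the positive one was the glycosylase gene tdg.1 (0.22 ± 0.10). The difference between uhrf1 and dnmt1 was not tested.

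Deacetylases with calls were not the class I enzymes of the main repressor complexes. The gene hdac10, whose protein deacetylates polyamines, had -0.42, -0.27 and -0.20, all negative, with a mean of -0.29 ± 0.11 (1.23-fold, limma adjusted p = 0.0168). For hdac11 the ratios were -0.33, -0.29 and -0.15 and the mean -0.26 ± 0.09 (1.20-fold, limma adjusted p = 0.0210). By contrast, hdac1, the deacetylase of NuRD, Sin3 and CoREST, had -0.06, 0.02 and 0.02 around 0, with a 95% interval of -0.13 to 0.11 (limma adjusted p = 0.941). Of its 5 probes, 4 lay between 0.07 and 0.14, and the fifth stood at -0.40 and passed alone (limma adjusted p = 0.0469 over probes), so the probes of hdac1 did not give the same ratio. For hdac3 the mean was 0.03 ± 0.15 (limma adjusted p = 0.790). The ratios of hdac8 were -0.23, -0.07 and -0.14, all negative, and the mean of -0.15 ± 0.08 did not pass (limma adjusted p = 0.112). Of its 3 probes, 1 passed alone. Differences between deacetylase genes were not tested.

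Of 21 listed partners of these deacetylase complexes, 16 were measured, with 1 positive and 2 negative calls. These were 6.25% and 12.5% of the 16, against 9.92% and 9.43% of all genes. The NuRD gene mbd3b had 0.62, 0.65 and 1.02 and a mean of 0.76 ± 0.22 (limma adjusted p = 0.00173). The related mbd3a had -0.14, -0.11 and -0.21 and did not pass (limma adjusted p = 0.0831). The NuRD gene gatad2ab (-0.24 ± 0.09) and the Sin3 scaffold gene sin3aa (-0.21 ± 0.07) were the negative calls. Arginine methyltransferases had their calls in prmt3, a cytosolic enzyme that acts on a ribosomal protein in mammals, with -0.39, -0.33 and -0.22 (mean -0.31 ± 0.09, limma adjusted p = 0.0102), and in prmt2, with -0.36, -0.32 and -0.18 (mean -0.29 ± 0.09, limma adjusted p = 0.0147). The main histone arginine methyltransferase gene, prmt1, lay at -0.02 ± 0.03 (limma adjusted p = 0.871). Just outside the threshold was prmt6, on the opposite side, with 0.33, 0.16 and 0.14 (limma adjusted p = 0.0512).

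Within SWI/SNF, 2 of 10 members passed (20.0%, against 19.4% of all genes). Both were ATPase genes, which provide the motor of the complex. The gene smarca4a had -0.24, -0.23 and -0.27, close to identical across arrays, with a mean of -0.25 ± 0.02 (1.19-fold, limma adjusted p = 0.0155). Its probes did not agree, with means of -0.47 and -0.34 that passed and 0.08 that did not. On replicate 3 these probes read -0.62, -0.47 and 0.29, so the small SD is that of their average. For smarca2 the ratios were -0.47, -0.23 and -0.23 and the mean -0.31 ± 0.14 (1.24-fold, limma adjusted p = 0.0188). The 8 measured non-ATPase members, such as the core subunit genes smarcb1b (-0.03), smarcc1a (-0.14) and smarce1 (-0.01), had 0 calls. Of these 8, 0 had an unadjusted p under 0.05 in the same limma fit, where 32.5% of all genes did. The contrast with the ATPase genes was not tested.

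Subunits of SWI/SNF that the symbol pattern leaves out lay on the opposite side where they passed. Of 19 listed, 15 were measured, with 5 positive and 0 negative calls (33.3% and 0.0%, against 9.92% and 9.43% of all genes). The median mean ratio of the 15 was -0.0003, and 8 of them had a mean below 0. The gene dpf1, for a subunit of the neuronal form of the complex in mammals, had 1.32, 1.00 and 1.26 (mean 1.19 ± 0.17, limma adjusted p = 0.00018), and dpf3 had 0.98, 1.05 and 1.22 (mean 1.09 ± 0.13, limma adjusted p = 0.00015). The zinc finger gene bcl11ba, for another associated subunit, stood at 1.32 ± 0.16, and bcl11aa (0.27 ± 0.03) and bcl7a (0.22 ± 0.09) followed. Each of these 5 genes was positive on all 3 arrays. Of them, bcl11ba was read by 2 probes and each of the others by 1. The neuronal actin-like subunit gene actl6b did not pass (mean 0.04 ± 0.11, limma adjusted p = 0.712). The progenitor-form subunit gene phf10 lay at -0.03 ± 0.08 and ss18 at -0.14 ± 0.09, and neither passed.

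Among chd and bromodomain genes, chd4b, an ATPase of NuRD, had -0.35, -0.20 and -0.26 (mean -0.27 ± 0.07, limma adjusted p = 0.0148). Its 5 probes ran from -0.58 to 0.03, and 2 passed. The repair-linked remodeller gene chd1l had a mean of -0.21 ± 0.05 (limma adjusted p = 0.0314). Of the bromodomain genes, brd2a, which belongs to the BET family of acetyl-lysine readers, had -0.31, -0.20 and -0.31 (mean -0.27 ± 0.06, limma adjusted p = 0.0132). Its 3 probes had means of -0.56, -0.22 and -0.05, and only the first passed alone. On replicate 3 they read -0.86, -0.16 and 0.09, so the small SD is that of their average. The acetyltransferase scaffold gene brd1b had -0.24, -0.27 and -0.64 (mean -0.38 ± 0.22, limma adjusted p = 0.0229), with replicate 3 the farthest from 0. The gene brd9, for a subunit of a SWI/SNF variant, had a mean of -0.23 ± 0.05 (limma adjusted p = 0.0231). In the arid class, arid4a, for an Rb-binding partner of Sin3, averaged -0.31 ± 0.02 (limma adjusted p = 0.00635), but its 2 probes had means of -0.62 and 0.00, so its call rests on 1 probe. HP1 proteins read the mark that suv39h1 enzymes make. In this class cbx1a passed, with -0.17, -0.32 and -0.17 (mean -0.22 ± 0.09, limma adjusted p = 0.0366), while cbx3a had a wider spread of -0.11, -0.36 and -1.14 (mean -0.54 ± 0.54) and did not pass (limma adjusted p = 0.0788).

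Probes of 1 member often gave different ratios. Of the 68 members with more than 1 probe, 31 had probe means of both signs, though 0 had probes called on both sides by limma. The gap between the lowest and highest probe had a median of 0.146 and was at least 0.3 for 13 members, with the largest, 0.712, in kdm4b. Of the 23 called members, 9 were read by 1 probe. In 3 of the other 14, cbx7a, setd6 and suv39h1b, every probe passed alone, and in 11 some did. Among the 9 read by 1 probe, cbx1a, dnmt3ba, kdm5bb and setd9 did not pass in the fit over probes. Their limma adjusted p there was 0.0697, 0.0528, 0.0744 and 0.0939. A further 8 members that were not called had a probe that passed.

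**Figure D3:**
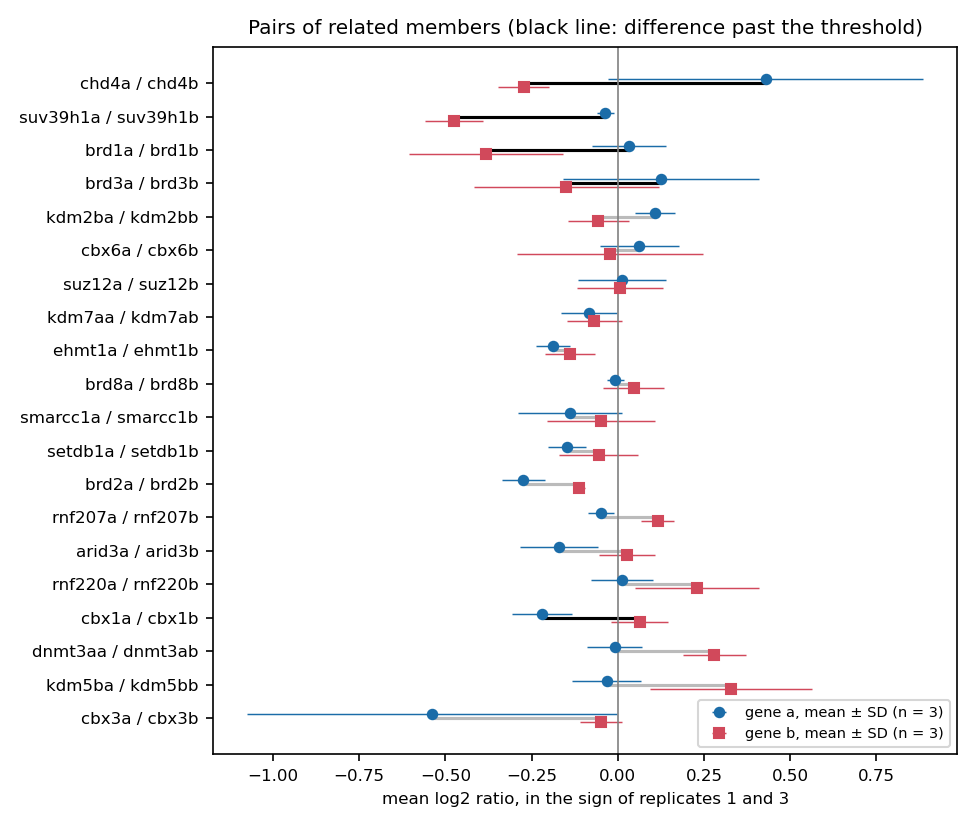
Mean log2 ratios of both genes of 20 pairs of related members, with the SD over 3 arrays, and a black line where the difference passed limma over all pairs. The black lines join chd4a and chd4b, suv39h1a and suv39h1b, brd1a and brd1b, brd3a and brd3b, and cbx1a and cbx1b.

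Many zebrafish genes are kept as 2 copies from an ancient genome duplication, so the ratios of both copies were compared. In the table, 1824 pairs of symbols differ only in a final a or b, and 20 are pairs of members, of which arid3a and arid3b are separate family genes also in mammals. The difference between the ratios of a pair passed limma, adjusted over the 1824 pairs, for 5 of the 20 (25.0%), where 22.9% of all pairs passed. In 8 of the 20 pairs 1 gene had passed on its own, and in 0 both had. The same counts were not made over the 1824 pairs, and 19.4% of all single genes had passed.

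The gene suv39h1a lay at -0.06, -0.01 and -0.03, above every ratio of suv39h1b, and the difference was 0.44 ± 0.09 (SD, n = 3, limma adjusted p = 0.00689). For chd4a the ratios were 0.01, 0.36 and 0.92, and although chd4a itself did not pass (limma adjusted p = 0.0994), it differed from chd4b by 0.70 ± 0.43, with differences of 0.36, 0.57 and 1.18 (limma adjusted p = 0.0109). The differences were 0.41 ± 0.25 between brd1a and brd1b (limma adjusted p = 0.0267), 0.27 ± 0.11 between brd3a and brd3b (0.0456) and -0.28 ± 0.04 between cbx1a and cbx1b (0.0331). The difference of brd3a and brd3b passed although neither gene did. The pair dnmt3aa and dnmt3ab lay just outside the threshold at -0.29 ± 0.17 (limma adjusted p = 0.0530). Differences of -0.36 ± 0.32 between kdm5ba and kdm5bb (limma adjusted p = 0.0649) and -0.49 ± 0.56 between cbx3a and cbx3b (0.0895) were larger but more variable and did not pass. The difference of suz12a and suz12b was 0.01, with a 95% interval of -0.17 to 0.18, and that of ehmt1a and ehmt1b was -0.05, with an interval of -0.23 to 0.13. Without replicate 2, 0 member pairs passed, and without replicate 3, 3 did, with the calls of brd1 and brd3 lost. Without replicate 1, 6 passed, but not brd3 or cbx1. A probe that shares sequence with the other copy cannot be told from it.

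**Figure D4:**
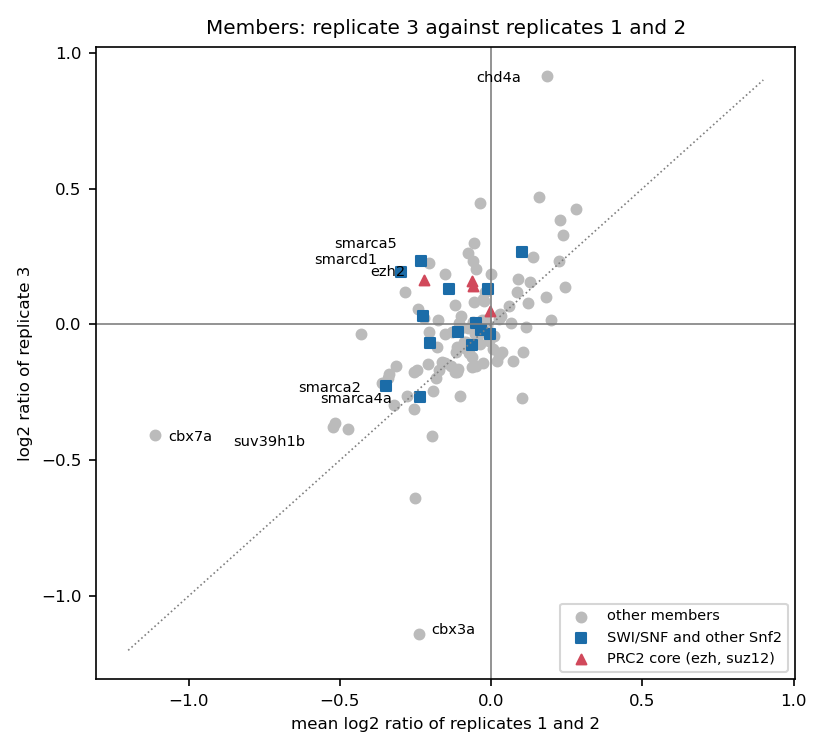
Log2 ratio of each of 120 members on replicate 3 (vertical axis) against the mean of replicates 1 and 2 (horizontal axis), with the line of equality dotted. Several SWI/SNF, other Snf2 and PRC2 genes lie in the upper left part, with negative values on replicates 1 and 2 and positive values on replicate 3.

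Replicate 3 departed from the others for part of the members. Across the 120 members, which are not independent, ratios correlated at r = 0.723 between replicates 1 and 2, 0.572 between 2 and 3 and 0.440 between 1 and 3, and all ratios share the pool. Over all genes these were 0.820, 0.738 and 0.644. Of 68 members below 0 on both replicates 1 and 2, 23 (33.8%) were above 0 on replicate 3, against 26.4% of all such genes. The reverse, above 0 on both and below 0 on replicate 3, held for 4 of 18 members (22.2%), against 28.5% of all such genes. As a share of all members the first pattern held for 19.2%, against 9.49% of all genes. By class it was lowest at 0 of 5 HP1 genes, 0 of 5 other arid genes and 2 of 22 lysine methyltransferases. It was highest at 3 of 8 arginine methyltransferases, 4 of 10 SWI/SNF genes and 2 of 4 other Snf2 genes. The last included the ISWI ATPase gene smarca5 (-0.20, -0.26 and 0.24). Of 10 Polycomb genes, 3 had this pattern, all among the 4 PRC2 core genes. The subunit gene smarcd1 had -0.34, -0.25 and 0.19.

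Without replicate 3 there were 30 negative and 4 positive calls of members, where the shares of all genes were 11.6% and 12.1%. Of the 23 calls over all arrays, 22 stood and 12 came in, among them ezh2, smarca5, smarcc1a, smarcd1, cbx5, ehmt2 and dnmt3bb.3, which were chosen after their values were seen. The mean of ezh2 over replicates 1 and 2 was -0.22 (limma adjusted p = 0.0259) and that of smarca5 -0.23 (0.0209). Without replicate 1 there were 9 negative and 5 positive calls, where the shares of all genes were 6.54% and 7.15%. The added ones were chd4a at 0.64 (limma adjusted p = 0.0149), cbx3a, and rnf220b and rnf25, which match only by the rnf2 prefix. Without replicate 2, the calls of cbx2, setd6 and suv39h1b stood and 20 were lost, which left 3 negative and 0 positive calls, where the shares of all genes were 3.04% and 3.65%. At an unadjusted p under 0.05, 39 members (32.5%) had passed in the limma fit of all arrays, as had 32.5% of all genes. With 2 arrays, 1 residual degree of freedom remained. All 23 members kept their sign in each of these fits, which had to be so because each had 1 sign on all 3 arrays.

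**Figure D5:**
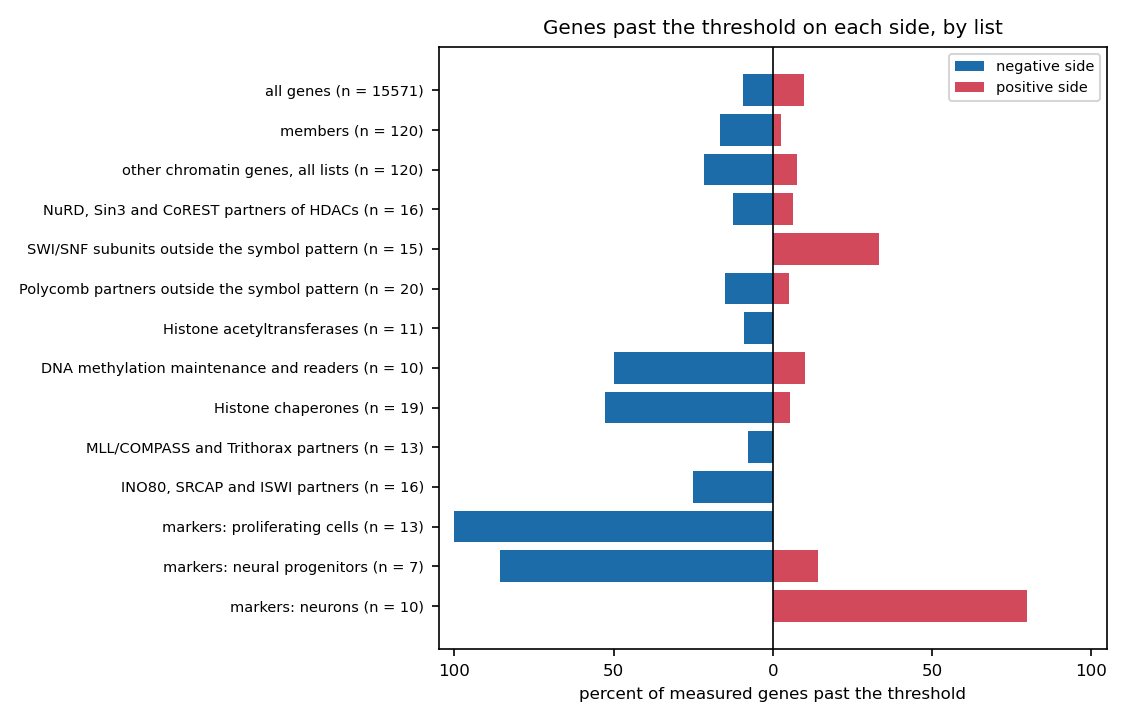
Percent of measured genes past the limma threshold on the negative (left, blue) and positive (right, red) side, for all genes, the 120 members, lists of other chromatin genes and marker lists. The members lie at 16.7% and 2.5%, histone chaperones at 52.6% and 5.26%, and the proliferation markers at 100% on the negative side.

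Other chromatin genes, listed by complex outside the symbol pattern, were measured for 120 of 153, with 26 negative and 9 positive calls (21.7% and 7.5%, against 9.43% and 9.92% of all genes). Histone chaperones, of which some deliver histones to newly copied DNA, had 10 negative calls and 1 positive call of 19 (57.9%). The share was 60.0% for the 10 measured genes of DNA methylation maintenance, removal and reading, and 19.4% for all genes. The chaperone genes asf1ba (-0.68 ± 0.15), nasp (-0.60 ± 0.12) and chaf1a (-0.48 ± 0.10) had the smallest adjusted p there, followed by anp32e on the positive side (0.44 ± 0.14). In the list of acetyltransferases, hat1, which acetylates new histone H4, had -0.54, -0.48 and -0.32 and was the only 1 of 11 to pass (limma adjusted p = 0.00363). Partners of INO80, SRCAP and ISWI had 4 negative and 0 positive calls of 16, led by chrac1 (-0.43 ± 0.19) and baz1a (-0.27 ± 0.04). Polycomb partners had 3 negative calls of 20, among them phc1 (-0.34 ± 0.11) and bmi1a (-0.28 ± 0.10), and 1 positive call, phc2b, with 0.69, 0.84 and 0.55 (limma adjusted p = 0.000958). Partners of the Trithorax methyltransferases had 1 negative call of 13, paxip1 (-0.36 ± 0.07), and 0 positive calls.

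Markers of dividing cells lay on the same side as most called members. All 13 measured of 15 proliferation markers passed on the negative side, with mean ratios from -0.80 to -0.23 and medians of -0.50, -0.51 and -0.34 on the 3 arrays. Of 7 neural progenitor markers measured, 6 were negative calls and 1, fabp7a, a positive call, over a range of -1.24 to 0.84. Of 10 neuronal markers, 8 were positive and 0 negative calls, over a range of 0.09 to 0.87, and of 7 lens and 5 photoreceptor markers, 5 and 2 passed on the positive side. The part of these cell types in the members' ratios was not tested.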

How the data were processed

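The values deposited by the authors are log ratios of single probes and were taken as log2. Partek is named in the submitters' processing notes, with no statement here of background correction, normalisation, base or numerator. Medians as deposited were -0.0035, -0.0029 and -0.0050, with 0 missing values. Replicate 2, with swapped dyes per the labels, correlated with replicates 1 and 3 at r = -0.742 and -0.647 over probes, and its sign was turned. Of 43648 probes, 45 controls were left out, 23717 had 1 gene symbol and 19886 none. Probes were averaged per Entrez gene, giving 15571 genes. Of 120 members, 119 were found by identifier in the GRCz12tu gene table and 52 had 1 probe. No filter on low values was possible.

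Mean ratios were tested against 0 with limma 3.58.1 in R 4.3.3 (lmFit, eBayes, 2 residual degrees of freedom, Benjamini-Hochberg over all genes at 0.05), after the code was tested on simulated data. Differences within a/b pairs were fitted likewise over 1824 pairs, and probes over 43603 probes. Intervals are at 95% and come from the same fits, and p-values measure the spread between these replicates. The genes named are all dnmt genes, up to 4 called members per class with the smallest adjusted p, a fixed set of names, pairs that differed, and up to 4 genes per further list. Members named beside these were chosen after their values were seen, and members and lists were chosen with earlier results of these data known. Alternatives covered replicates, the dye term, centring, scaling, quantile normalisation, the prior, probes, the threshold and a minimum change. A planned search of promoters for motifs was not run, since no sequence was used here. Summaries used Python 3.11.15, with matplotlib 3.10.9 for the plots.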

Additional observations from a re-analysis of the deposited data

How the results depend on the processing

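Calls of members on the negative side (20) numbered 5 with a dye term, 6 against a minimum change of 0.1 and 5 at an adjusted p of 0.01, and 3 to 30 when 1 replicate was left out. Those on the positive side (3) numbered 0 under each of these 3 settings and 0 to 5 when 1 replicate was left out. Over all genes, 1468 negative and 1545 positive calls became 672 and 793 with a dye term, 758 and 881 against the minimum change and 655 and 779 at the stricter threshold, and 473 to 1814 and 568 to 1879 without 1 replicate. As shares, negative calls of members were close to those of all genes under these 3 settings and without replicate 1 or 2. They were the larger without replicate 3. The positive share of members was below that of all genes in each. Pairs of members that differed (5) numbered 1 with a dye term, 2 against the minimum change, 1 at the stricter threshold and 0 to 6 without 1 replicate, and all pairs (417) numbered 150, 259, 203 and 79 to 452. Class medians ranged from -0.0526 to -0.0178 for lysine demethylases, from -0.0912 to -0.0457 for lysine methyltransferases, from -0.0835 to 0.0120 for chd genes, from -0.1607 to -0.0151 for bromodomain genes, from -0.1321 to -0.0189 for other Snf2 genes, from -0.1232 to -0.0327 for SWI/SNF and from -0.0325 to 0.0454 for Polycomb without 1 replicate. Centring, scaling, quantile normalisation, the robust prior and the median of probes left 18 to 20 negative and 3 to 4 positive member calls, and calls by probe gave 15 and 3. Calls by probe kept 15 of the 23 and lost 8, among them kdm5bb and kdm6bb, while kmt5b, prmt6 and smarcad1a came in. On the positive side only dnmt3ab was kept. The genes cbx2, setd6 and suv39h1b passed under all 12 alternatives, and cbx7a and arid4a under 11, failing without replicate 2. Each of these genes has 1 or 2 probes, so the median of probes could not change its ratios. By probe, arid4a passed with 1 of its 2 probes called and the other at -0.0006. Fits with the dye term or without 1 replicate had 1 residual degree of freedom in place of 2, so a lost call does not show dependence on the dye or replicate. No named member or pair changed sign while past the threshold in any alternative. For called members and pairs this was fixed without 1 replicate or with the dye term, as each had 1 sign on all arrays. No paired analysis was possible because the series has 1 treated group against 1 pool. Without intensities, signal over background is unknown.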
